A study of Mus musculus with 12 samples.

Results

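Keratin-associated proteins are the matrix of the hair shaft. The genes described here are the mouse genes with a symbol starting with Krtap, which were found as 43 probe sets with a single annotated symbol and stand for 38 genes, of 18193 genes with such a probe set. The probe set with the highest mean over all arrays stood for its gene, and the number before the hyphen gives the subfamily, of which there were 22. All 38 symbols are among the 56 protein-coding Krtap genes of RefSeq. A further 6 probe sets carried a Krtap symbol together with others and were not counted as members.

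In the growing (anagen) follicle, cells that leave the matrix and enter the cortex and cuticle first make hair keratins, which assemble into filaments, and then keratin-associated proteins, which surround the filaments and bind them together through disulfide bonds and other contacts. The family is usually divided by composition into high sulfur and ultra-high sulfur proteins, both rich in cysteine, and high glycine-tyrosine proteins. Most of the genes are short, have a single coding exon and lie in clusters with their relatives. Alopecia areata is an autoimmune loss of hair in which T cells gather around the anagen follicle, and baricitinib inhibits the kinases JAK1 and JAK2.

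Skin was taken from C3H/HeJ mice that carried a graft of alopecic C3H/HeJ skin and had established disease. Topical baricitinib was given to 3 mice and topical vehicle control to 3 others, each mouse giving skin at week 0, the start of treatment, and at week 12, so that 12 Affymetrix arrays fell into 4 groups of 3. All 4 groups shared the strain, the graft and the disease, so that no array stands for healthy skin, and the strain has a spontaneous form of the same disease. Neither age nor sex is given in the labels. Values are log2 RMA intensities, a scale on which a difference of 1 is a doubling, and the level of one probe set is not compared with that of another.

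Before the results, 2 arrays have to be named. Over all probe sets, the median correlation with the other arrays was 0.945 for baricitinib week 0 mouse 2 and 0.951 for baricitinib week 12 mouse 1, against 0.955 to 0.979 for the other 10. According to the methods, a baricitinib sample at each time failed quality control, as did a control sample at baseline of an experiment not named. Whether any of them is among these arrays is not stated. Counts are given with and without the 2 arrays of lowest correlation, which need not be the samples that failed. The skin label held on every array, since the mean level of 7 markers of interfollicular epidermis lay between 12.05 and 12.78 while the median of all probe sets lay between 5.16 and 5.35.

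The stretch upstream of the start site is shown for 4 of the genes that passed the test below and for the 3 genes with the smallest change. It runs from 70 bases before the annotated start to the last base before it, in the RefSeq windows of GRCm38.p6, read 5′ to 3′ on the strand of the gene, and the capitals mark TATAAA, the classical form of the TATA box.
Krtap4-16, chr11:99851606-99851675, minus strand: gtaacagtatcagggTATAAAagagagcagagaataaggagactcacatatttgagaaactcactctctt
Krtap4-2, chr11:99635085-99635154, minus strand: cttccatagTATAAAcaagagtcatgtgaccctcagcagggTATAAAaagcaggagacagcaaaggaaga
Krtap13-1, chr16:88728792-88728861, plus strand: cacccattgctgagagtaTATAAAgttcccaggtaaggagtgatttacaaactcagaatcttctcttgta
Krtap17-1, chr11:99993995-99994064, minus strand: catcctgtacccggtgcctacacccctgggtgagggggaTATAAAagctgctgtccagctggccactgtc
Krtap5-1, chr7:142297135-142297204, minus strand: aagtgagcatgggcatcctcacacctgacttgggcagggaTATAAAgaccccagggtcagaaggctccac
Krtap13, chr16:88751629-88751698, minus strand: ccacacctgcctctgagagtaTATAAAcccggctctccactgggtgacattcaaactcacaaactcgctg
Krtap19-1, chr16:88869411-88869480, minus strand: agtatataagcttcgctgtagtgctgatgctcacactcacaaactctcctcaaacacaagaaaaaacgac

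Promoter windows of 300 bases, from 250 before to 50 after the start, were found for 36 of the 38 genes (all but Krtap7-1 and Krtap12-1). TATAAA on either strand was found in 29 of them, or 80.6%, against 13.6% of all 32851 windows. With its first base from -40 to -21, counted back from the start, and on the coding strand, it was found in 21 windows, or 58.3%, against 1.99% of all. Thus the letters are common in the family, and they stood both in genes with large changes, such as Krtap17-1 with the first base at -31, and in Krtap5-1, with one of the smallest changes, at -30. The core CTTTGA, a form bound by LEF1, was found in 10 windows, or 27.8%, against 16% of all, and TTTATTG, a form of the HOXC13 site, in 0 windows against 4.60%. Both were searched on both strands, and 0 windows held TTTATTG overlapping TATAAA. A match describes letters and is no proof of a bound site.

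The first question was whether the shaft genes differed after 12 weeks of baricitinib. All 38 Krtap genes had a lower mean at week 12 than at week 0, against 49.7% of all probe sets, with a median log2 difference of -4.28 and a range from -6.11 to -0.72. The median over all probe sets was 0.0026. At baricitinib week 12 the means of 14 of the 38 genes lay under the median of all probe sets, as did 29 genes on the array of mouse 3. No detection calls were used, so values this low may be at background, and no exact fold is given. In limma, 7 genes were called lower at an adjusted p under 0.05 and 0 were called higher. That is 18.4% of the members, against 0.875% of all 45037 probe sets called lower and 0.362% called higher. At an unadjusted p under 0.05 there were 36 genes, all lower, against 2726 lower and 2806 higher of all 45037 probe sets. For 35 of the 38, or 92.1%, every week 12 array was below every week 0 array, against 7.91% of all probe sets, and the 3 exceptions were Krtap5-1, Krtap5-3 and Krtap6-3. In whole skin, fewer cells that make a shaft and less RNA in each of them cannot be told apart. The paper saw hair grow in mice given baricitinib, and no clinical sign of regrowth with vehicle. How the Krtap values relate to hair growth was not tested.

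**Figure D1:**
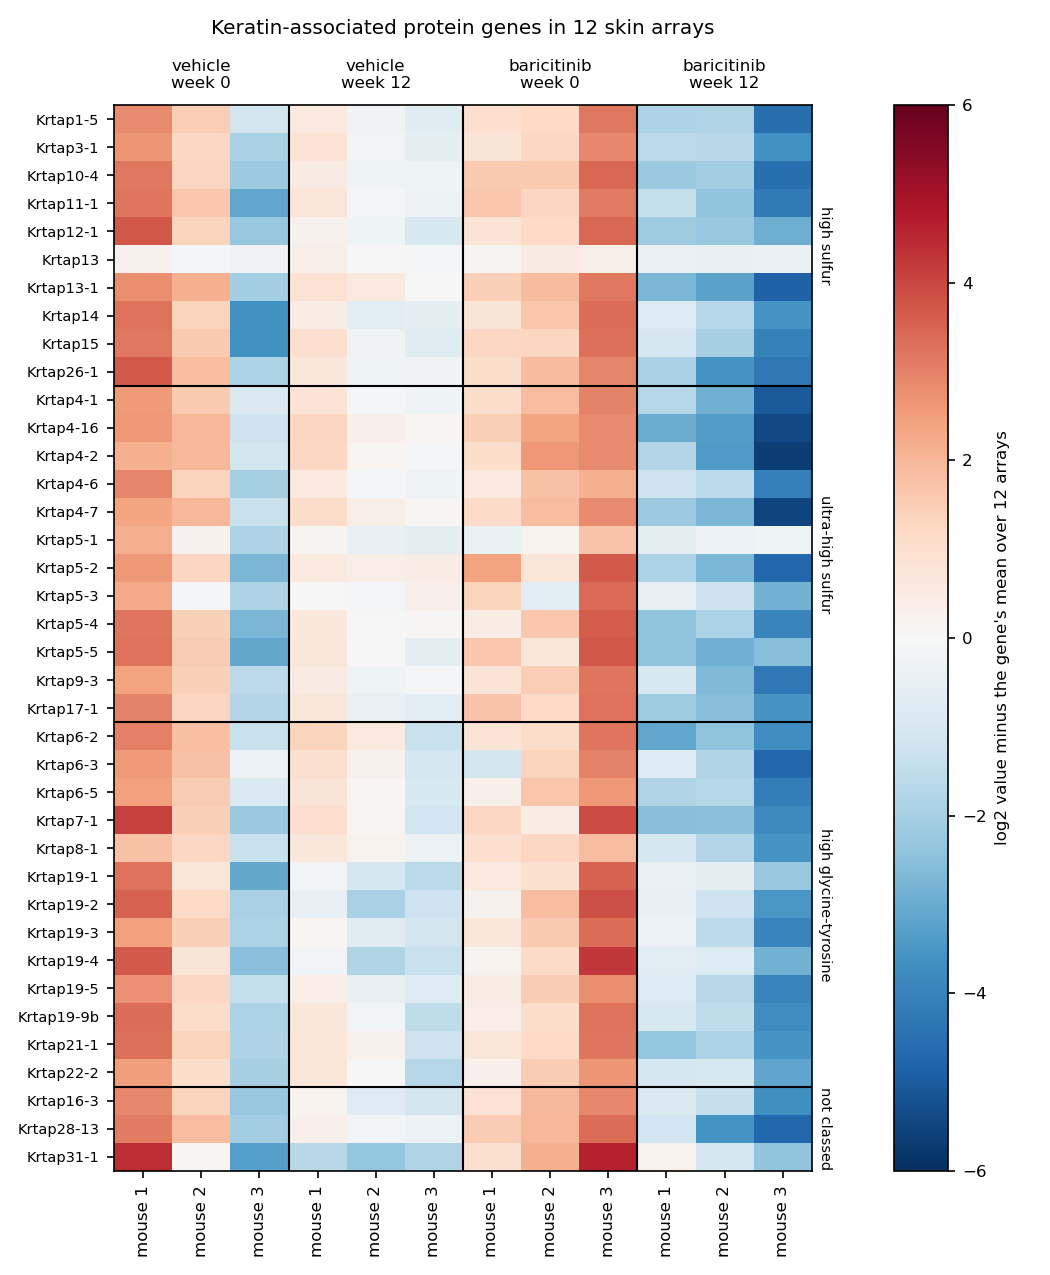
Log2 value of each of the 38 Krtap genes (rows, by protein class) on each of the 12 arrays (columns, by group and mouse), minus the gene's mean over the 12 arrays. The 3 baricitinib week 12 columns are blue almost throughout, as is vehicle week 0 mouse 3, and Krtap13 and Krtap5-1 are the palest rows there.

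Krtap4-16, an ultra-high sulfur gene of chromosome 11, had the largest difference. Its log2 values were 10.56, 11.47 and 11.95 in baricitinib mice 1 to 3 at week 0 and 6.16, 5.77 and 3.71 at week 12. In the vehicle mice they were 11.75, 11.09 and 7.90 at week 0 and 10.43, 9.44 and 9.24 at week 12. The 3 baricitinib week 12 arrays lay below all 9 others, and the lowest of those 9 was vehicle mouse 3 at week 0. The log2 difference between the baricitinib times was -6.11 (SE 0.91, n = 3 mice, adjusted p = 0.0114 in limma). With each mouse as a block, fixed here and below unless called random, the adjusted p was 0.0320, so that the call held. Without baricitinib week 0 mouse 3 the adjusted p was 0.0684.

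The other 3 called genes of this subfamily, which is known from the cortex, had the same order of groups. Krtap4-2 had values of 9.33, 10.87 and 11.10 at week 0 and 6.49, 4.89 and 2.63 at week 12 in the baricitinib mice, and of 10.41, 10.24 and 7.18 and 9.51, 8.39 and 8.17 in the vehicle mice. Krtap4-7 had 10.72, 11.45 and 12.44 and then 7.41, 6.84 and 4.05 with baricitinib, and 11.97, 11.56 and 8.23 and then 10.68, 9.93 and 9.67 with vehicle. Krtap4-1 had 10.18, 10.96 and 12.10 and then 7.40, 6.24 and 4.07 with baricitinib, and 11.68, 10.70 and 8.25 and then 9.95, 9.07 and 8.86 with vehicle. In each of them the baricitinib week 12 arrays lay below the other 9 without overlap. The log2 differences between the baricitinib times were -5.77 for Krtap4-2 (SE 1.00, adjusted p = 0.0216), -5.43 for Krtap4-7 (SE 1.00, adjusted p = 0.0270) and -5.18 for Krtap4-1 (SE 0.93, adjusted p = 0.0244). These calls were lost with the mouse as a fixed block, at adjusted p = 0.0602, 0.0666 and 0.0666 in the same order. They held in limma with the mouse as a random block, at adjusted p = 0.0219, 0.0274 and 0.0247.

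Outside the Krtap4 subfamily, 3 genes passed. Krtap13-1, a high sulfur gene on chromosome 16, had values of 9.95, 10.40 and 11.68 at week 0 and 5.78, 5.28 and 3.63 at week 12 in the baricitinib mice, and of 11.27, 10.63 and 6.45 and 9.38, 9.06 and 8.49 in the vehicle mice. Krtap26-1, also high sulfur, had 8.47, 9.29 and 10.33 and then 5.45, 3.88 and 3.12 with baricitinib, and 11.06, 9.25 and 5.51 and then 8.07, 7.16 and 7.20 with vehicle. Krtap17-1, an ultra-high sulfur gene known from the cuticle, had 9.87, 9.35 and 11.42 and then 6.04, 5.62 and 4.62 with baricitinib, and 11.13, 9.48 and 6.42 and then 8.83, 7.76 and 7.53 with vehicle. The treated week 12 arrays were again the lowest 3 of the 12. In Krtap26-1 the margin was narrow, at 5.45 against the 5.51 of vehicle mouse 3 at week 0. The log2 differences were -5.78 for Krtap13-1 (SE 1.04, adjusted p = 0.0244), -5.21 for Krtap26-1 (SE 1.12, adjusted p = 0.0492) and -4.79 for Krtap17-1 (SE 0.97, adjusted p = 0.0396). With the mouse as a fixed block these were no longer called, at adjusted p = 0.0523, 0.0799 and 0.0560. As a random block in limma it left them called, at adjusted p = 0.0249, 0.04996 and 0.0403.

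**Figure D2:**
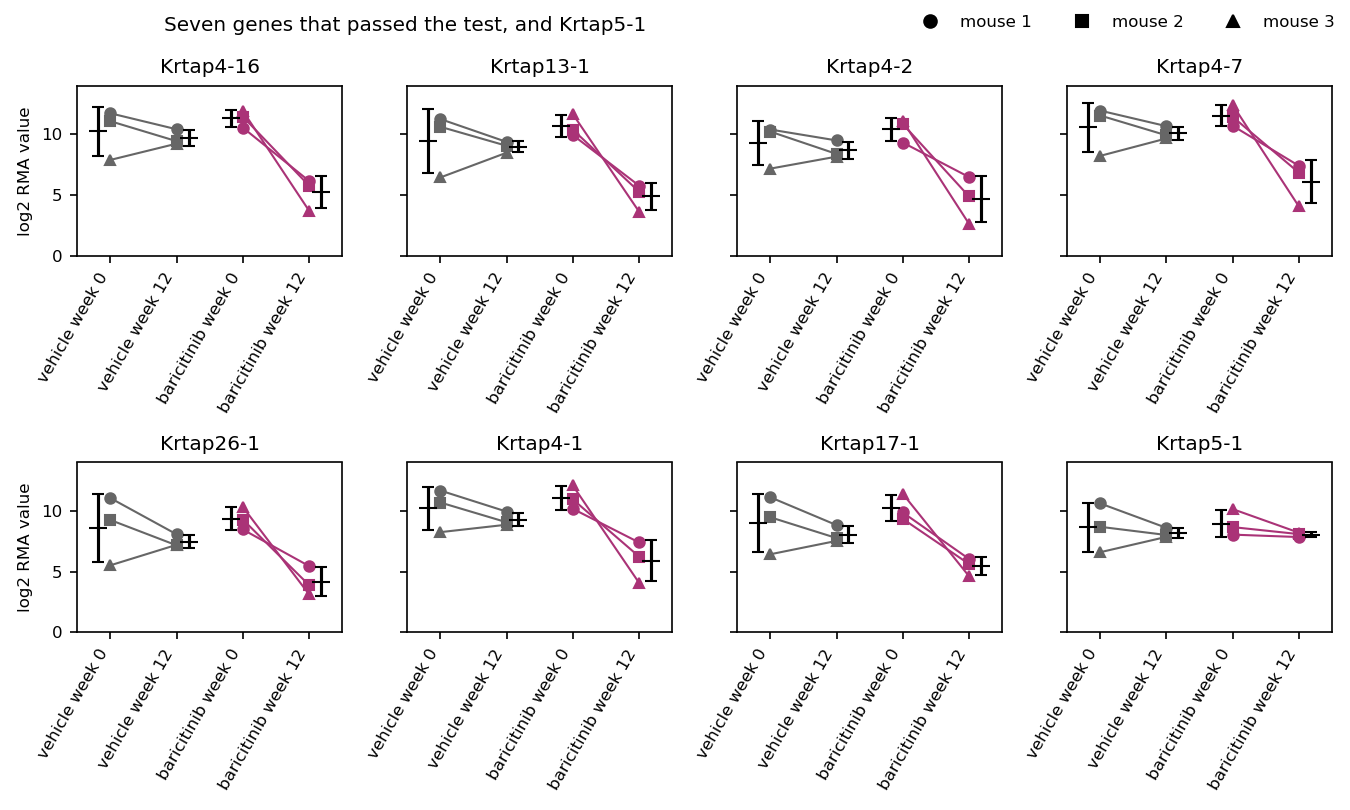
Log2 RMA value on each array (points, joined within a mouse) for the 7 called genes and for Krtap5-1, by group, with the mean and SD of 3 mice beside the points. In the 7 called genes every baricitinib line falls, vehicle mouse 3 starts lowest among the week 0 arrays, and Krtap5-1 shows week 12 values of 7.85 to 8.20 with baricitinib.

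Most of the other 31 genes had large differences that missed the threshold, with adjusted p from 0.0510 to 0.738 and 7 of them between 0.05 and 0.06. Krtap28-13, at -5.41, Krtap5-2, at -5.40, and Krtap10-4, at -5.14, had differences as large as those of called genes with standard errors of 1.12 to 1.19. Krtap6-2, a high glycine-tyrosine gene, had -4.78 (SE 1.04, adjusted p = 0.0529). It was called with the mouse as a fixed block (adjusted p = 0.0366) and not as a random one (adjusted p = 0.0539). The fit with the fixed block called 2 genes, Krtap4-16 and Krtap6-2, of which 1 was shared with the unblocked fit. In it 0.289% of all probe sets were called lower, against 0.875% without the block. The count of called genes in the unblocked fit also turned on single arrays. It was 0 without baricitinib week 0 mouse 3, 1 without baricitinib week 0 mouse 2, baricitinib week 12 mouse 2 or baricitinib week 12 mouse 3, and 2 without baricitinib week 0 mouse 1, while it was 14 without baricitinib week 12 mouse 1, 17 without vehicle week 0 mouse 1 and 26 without vehicle week 0 mouse 3. Over these fits 0.133% to 1.66% of all probe sets were called lower. Without both arrays of low correlation the count was 4, against 1.14% of all probe sets called lower. The median was then -4.76, and 37 genes were without overlap, against 30.2% of all probe sets.

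The 3 smallest differences were those of Krtap13, Krtap5-1 and Krtap19-1. Krtap5-1, which codes for an ultra-high sulfur protein of a cuticle subfamily, had values of 8.04, 8.67 and 10.15 at week 0 and 7.85, 8.09 and 8.20 at week 12 in the baricitinib mice, and of 10.62, 8.69 and 6.59 and 8.60, 8.01 and 7.86 in the vehicle mice. All 4 groups overlapped, and its log2 difference between the baricitinib times was -0.91 (SE 0.81, adjusted p = 0.738). A second probe set of Krtap5-1, whose suffix marks probes that may match other transcripts, gave -0.88. The other 4 genes of its subfamily had -5.40, -4.65, -4.63 and -2.89, and none of the 5 passed, so that a difference of Krtap5-1 from its relatives was not tested.

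Krtap13 had values of 2.28, 2.60 and 2.46 at week 0 and 1.76, 1.69 and 1.73 at week 12 with baricitinib, and of 2.39, 2.05 and 1.93 and 2.46, 2.16 and 2.05 with vehicle. On every array these lie far under the median of the whole array, so that little signal stands behind them. The difference between the baricitinib times was -0.72 (SE 0.21, adjusted p = 0.141), without overlap. Krtap19-1, a high glycine-tyrosine gene of the cortex, had 8.72, 9.08 and 11.66 and then 7.73, 7.57 and 5.84 with baricitinib, and 11.39, 8.86 and 5.04 and then 7.96, 7.07 and 6.50 with vehicle. Its difference was -2.78 (SE 1.30, adjusted p = 0.424), and 2 of the 3 vehicle week 12 arrays lay among the treated ones.

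By class, 5 of 12 ultra-high sulfur genes were called, with a median log2 difference of -4.72, and 2 of 10 high sulfur genes, with a median of -4.41. None of 13 high glycine-tyrosine genes was called in limma, with a median of -3.73 and 12 of them at an unadjusted p under 0.05. Of 3 genes left without a class (Krtap16-3, Krtap28-13 and Krtap31-1), 0 were called, with a median of -3.86 and all 3 at an unadjusted p under 0.05. The subfamilies with several genes had medians of -5.43 for Krtap4 (5 genes, 4 called), -4.63 for Krtap5 (5 genes), -4.10 for Krtap6 (3 genes), -3.25 for Krtap13 (2 genes, 1 called) and -3.69 for Krtap19 (6 genes). By place in the RefSeq table, 5 of 10 genes on chromosome 11 and 2 of 19 on chromosome 16 were called, and 0 of 5 on chromosome 7, all of which are of the Krtap5 subfamily. Of the 6 probe sets that several genes share, whose differences ran from -5.06 to -0.88, 1 was called, that of Gm11554, Gm11569 and Krtap4-13 (adjusted p = 0.0429), a call that was lost with the mouse as a block (adjusted p = 0.0815). The difference between classes, subfamilies or chromosomes was not tested, since relatives share sequence and can share probes.

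**Figure D3:**
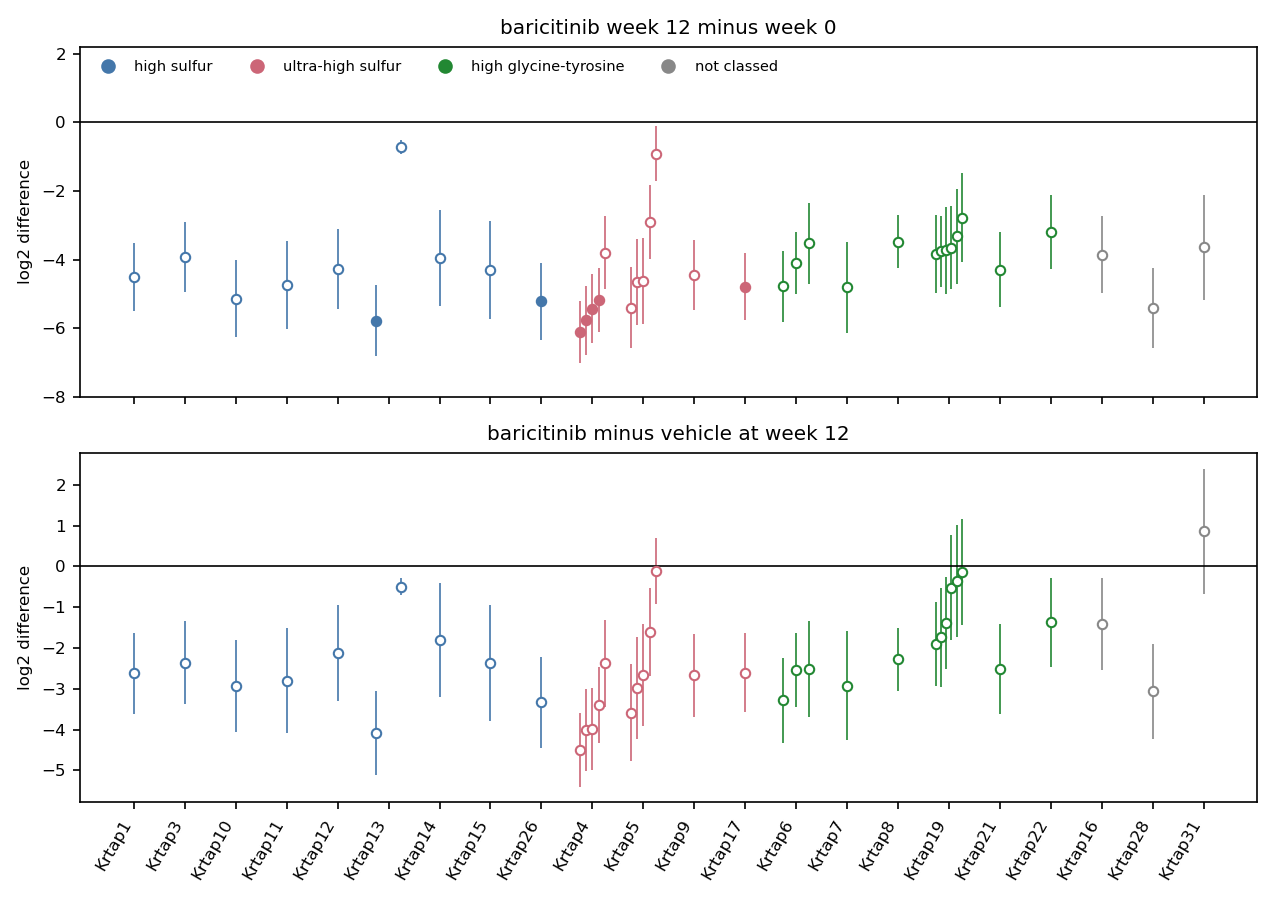
Log2 difference (points) and its standard error (bars) for each Krtap gene, by subfamily and coloured by class, for baricitinib week 12 minus week 0 (upper panel) and baricitinib minus vehicle at week 12 (lower panel), with filled points at an adjusted p under 0.05. All points of the upper panel lie below 0, and in the lower panel the Krtap19 genes lie between -1.89 and -0.14.

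Krtap6 and Krtap19 are high glycine-tyrosine subfamilies of several genes, and 1 gene of each is given array by array. Krtap6-3 had values of 8.70, 11.17 and 12.80 at week 0 and 8.98, 8.02 and 5.09 at week 12 in the baricitinib mice, and of 12.40, 11.57 and 9.47 and 10.81, 10.06 and 8.77 in the vehicle mice. It was the one gene of the family that was not lower at week 12 in all 3 baricitinib mice, with a difference of 0.28 in mouse 1, and its overall difference was -3.53 (SE 1.17, adjusted p = 0.208). Krtap19-5 had 10.10, 11.18 and 12.44 and then 8.82, 7.97 and 5.64 with baricitinib, and 12.40, 10.91 and 8.20 and then 10.04, 9.21 and 8.88 with vehicle. Baricitinib week 12 lay below week 0 in this gene without overlap (-3.76, SE 1.03, adjusted p = 0.118), while vehicle mouse 3 at week 0 lay within the treated range.

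Over the same 12 weeks the vehicle mice showed no called Krtap gene. The median log2 difference was -0.89, from -2.34 in Krtap31-1 to 0.10 in Krtap13, and 36 of 38 genes were below 0, against 46.3% of all probe sets. Limma called 0 genes in either direction (background 0%), and 0 had an unadjusted p under 0.05. Of all probe sets, 551 were lower and 557 higher at that unadjusted p. The mice did not go the same way. Mice 1 and 2 were lower at week 12 in 37 genes each, with medians of -2.30 and -1.62, whereas mouse 3 was higher in 36, with a median of 1.28. In 35 genes both held together. Without vehicle week 0 mouse 1 the median of the family was 0.16, and without vehicle week 0 mouse 3 it was -2.26. In 0 genes were all week 12 arrays below all week 0 arrays, against 3.59% of all probe sets.

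**Figure D4:**
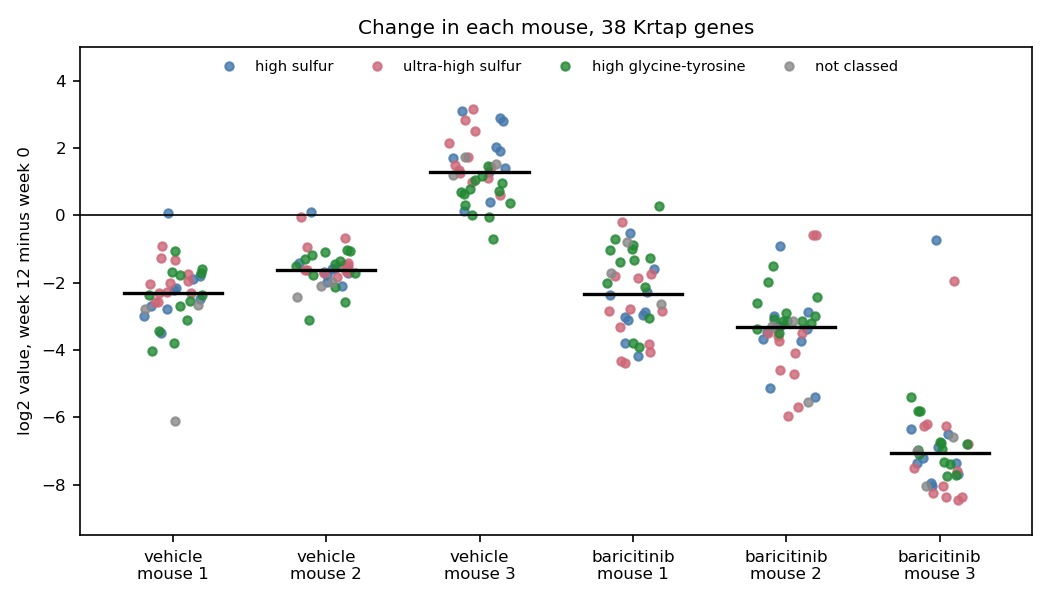
Log2 value at week 12 minus week 0 in each of the 6 mice (columns), with a point for each of the 38 Krtap genes coloured by class and a bar at the median. The medians are -2.30, -1.62 and 1.28 in the vehicle mice and -2.32, -3.32 and -7.05 in the baricitinib mice.

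Within the baricitinib mice the size differed from mouse to mouse. The median difference was -2.32 in mouse 1, -3.32 in mouse 2 and -7.05 in mouse 3, and the lowest was -8.47, in Krtap4-2 of mouse 3. Mouse 3 both started highest, with the highest of all 12 values in 29 genes at week 0, and ended lowest, with the lowest of all 12 in 32 genes at week 12. Baricitinib mouse 1 and vehicle mouse 1 had nearly the same median, so that the 2 treatments overlapped by mouse. At week 0 vehicle mouse 3 had the lowest value of the 6 arrays in 37 genes. The median SD of the Krtap genes within a group was 2.55 in vehicle week 0, 1.34 in baricitinib week 12, 1.18 in baricitinib week 0 and 0.62 in vehicle week 12, while the median SD over all probe sets was 0.27 to 0.41.

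At week 12 the treated skin was compared with vehicle skin. This comparison shares the baricitinib week 12 arrays with the one over time and is not independent of it. The median log2 difference was -2.51, with 37 of 38 genes below 0, against 48.7% of all probe sets, and a range from -4.49 in Krtap4-16 to 0.86 in Krtap31-1. Of the Krtap genes, 20 had an unadjusted p under 0.05, against 2705 lower and 2198 higher of all probe sets. After adjustment, limma called 0 Krtap genes lower or higher, against a background of 0.429% lower and 0.151% higher. The nearest to the threshold was Krtap4-16 (SE 0.91, adjusted p = 0.0567), followed by Krtap4-2, with a difference of -4.02 (adjusted p = 0.120). In 28 genes, or 73.7%, every baricitinib array was below every vehicle array, against 9.69% of all probe sets. Without both arrays of low correlation the median was -2.92, 0 genes were called and 32 were without overlap, against 27.1% of all probe sets. In 13 genes the baricitinib week 12 arrays were below all 9 other arrays, against 3.07% of all probe sets, among them the 7 that passed over time.

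Among the 10 genes that overlapped between treatments at week 12 were 5 of the 6 Krtap19 genes, all but Krtap19-5. The Krtap19 subfamily had a median difference of -0.96 from vehicle at week 12, beside -3.69 over time with baricitinib and -1.24 over time with vehicle. The Krtap4 subfamily had -3.99, -5.43 and -0.58 in the same order, and all 5 of its genes lay below vehicle without overlap. For Krtap19-1 the 2 probe sets differed in sign in the week 12 comparison, at -0.14 and 0.56, neither of them called. The other 4 genes with a second probe set (Krtap5-1, Krtap6-3, Krtap12-1 and Krtap16-3) had the same sign in all 5 comparisons. Krtap31-1, the one gene above vehicle at week 12, had 6.07, 4.84 and 3.51 with baricitinib and 4.19, 3.57 and 4.08 with vehicle, with overlap, after 6.85, 7.99 and 10.51 and 10.31, 5.99 and 2.56 at week 0 (difference at week 12 of 0.86, SE 1.54, adjusted p = 0.940).

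At week 0 the treatments had not yet begun, and 37 of 38 genes had a higher mean in the baricitinib mice than in the vehicle mice, with a median log2 difference of 1.07. Krtap6-3, at -0.25, was the exception, and 47.9% of all probe sets were below 0. In 0 genes did the baricitinib arrays all lie below the vehicle arrays, against 2.73% of all probe sets. With 37 means higher, only Krtap6-3 could have met that order, so the count says little. The reverse order was not counted. Limma called 0 Krtap genes in either direction (background 0%), and 0 had an unadjusted p under 0.05. At that unadjusted p, 310 of all probe sets were lower and 198 higher. That median was -0.34 without vehicle week 0 mouse 3. The change with baricitinib minus the change with vehicle, which takes this gap into account, had a median of -3.33, with all 38 genes below 0 against 52.4% of all probe sets. Without vehicle week 0 mouse 3 the median was -2.02 and 35 genes were below 0, against 54.3% of all probe sets, the exceptions being Krtap5-1, Krtap19-1 and Krtap31-1. With all arrays it ranged from -5.57 in Krtap4-16 (SE 1.28, adjusted p = 0.268) to -0.43 in Krtap5-1. Limma called 0 genes (background 0%), and 20 had an unadjusted p under 0.05, against 1466 lower and 1359 higher of all probe sets. For no gene of the family did the difference between the 2 changes pass after adjustment.

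The filaments that these proteins bind were followed with 16 hair shaft keratins, of which 12 were measured. Their median log2 difference over 12 weeks of baricitinib was -4.34, close to the -4.28 of the Krtap genes, and 3 were called lower and 0 higher. These were Krt35, an early cortex keratin (-6.51, adjusted p = 0.0022), Krt31 of the later cortex (-5.16, adjusted p = 0.0372) and Krt82 of the cuticle (-5.11, adjusted p = 0.0203). With the mouse as a block Krt35 alone stayed called, at adjusted p = 0.0244. The mean level of the 12 keratins was 8.88 to 10.42 at baricitinib week 0, 4.71 to 6.21 at baricitinib week 12, 6.23 to 10.32 at vehicle week 0 and 7.67 to 8.37 at vehicle week 12. The low end at vehicle week 0 was again wide of the other arrays of that group, as in the Krtap genes.

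Other proteins of the shaft and of the layers beside it were called for 3 of 12 measured genes, Lrrc15 (-3.82, adjusted p = 0.0011), Prr9 (-5.50, adjusted p = 0.0215) and Tchh, the trichohyalin of the inner root sheath and medulla (-2.76, adjusted p = 0.0216), and the median was -3.21. Among 12 regulators the median was -0.88, and 2 were called lower, Shh, the hedgehog ligand of the matrix (-5.81, adjusted p = 0.0102), and Msx2, a homeobox factor of the matrix (-2.79, adjusted p = 0.0248). Hoxc13, a homeobox factor known to act on hair keratin and Krtap genes, had -2.03 (adjusted p = 0.239), Lef1 had -2.16 (adjusted p = 0.245) and Foxn1 had -0.35 (adjusted p = 0.721). None of the regulators was called higher. The 2 with a difference above 0 were Gata3 (0.92, adjusted p = 0.247) and Hr (0.43, adjusted p = 0.770). Of the genes named here, the mouse block kept the call of Lrrc15 (adjusted p = 0.0102) and not those of Prr9, Tchh, Shh or Msx2, at 0.0540, 0.0750, 0.0603 and 0.0844.

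Markers of other cells moved with the Krtap genes to different degrees. Of 6 inner root sheath keratins, 5 were called lower (2 with the mouse as a block), and their mean level was 11.07 to 12.08 at baricitinib week 0, 5.42 to 7.41 at baricitinib week 12, 8.10 to 12.12 at vehicle week 0 and 10.19 to 10.32 at vehicle week 12. T cell markers were called lower for Cd8a and Gzmb, 2 of 5, while Cd3e, Cd3g and Cd4 had differences of 0.01, 0.55 and 0.08, and the median of the list was 0.01. The mean level of the 5 was 7.90 to 8.45 before and 5.83 to 7.10 after baricitinib, and 1 of the 5 lay below the array median on all 12 arrays. Of 4 proliferation markers measured, 1 was called lower (Cdk1, -1.23, adjusted p = 0.0387, or 0.113 with the mouse as a block), and of 6 melanocyte markers 0 (3 at an unadjusted p under 0.05, median -1.79). For 3 adipocyte markers the mean level went from 8.05 to 9.99 before to 10.58 to 11.10 after baricitinib, with 0 called in limma and 2 at an unadjusted p under 0.05. The 7 interfollicular epidermis markers, at 12.35 to 12.44 before and 12.23 to 12.48 after, had a median difference of 0.07 and 0 calls, with 1 at an unadjusted p under 0.05. Skeletal muscle (5 markers, median 0.05, range -3.12 to 0.45) had 0 calls and 1 at an unadjusted p under 0.05. The mean level of its 5 markers was 11.27 to 11.81 before and 9.39 to 12.00 after baricitinib. The companion layer and outer root sheath (3 markers, median -0.66) also had 0 calls and 1 at an unadjusted p under 0.05. The part of these cell types in the Krtap differences was not tested.

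A measure of RNA integrity differed between arrays as well, with ranges that overlapped between all 4 groups. The log2 signal of the 3′ control probe sets of Gapdh and Actb minus that of the 5′ ones was 2.55 to 4.10 at baricitinib week 0, 1.27 to 3.45 at baricitinib week 12, 1.23 to 4.08 at vehicle week 0 and 2.97 to 3.58 at vehicle week 12. The lowest values were those of vehicle week 0 mouse 1, at 1.23, where the Krtap genes were high, and of baricitinib week 12 mice 2 and 3, at 1.27 and 1.31, where they were low. The highest was that of baricitinib week 0 mouse 2, at 4.10, where the median Krtap deviation from the gene's mean was 1.40. Vehicle week 0 mouse 3, at 4.08, had a median deviation of -1.93. Baricitinib week 0 mouse 3, where the Krtap genes were highest, had 2.55, the lowest of its group. With this measure as a covariate, 22 Krtap genes were called lower over time with baricitinib, including the 7, and the median was -5.14. In that fit 2.19% of all probe sets were called lower, more than the 0.875% without the covariate.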

How the data were processed

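RNA from skin biopsies of 6 mice was amplified, labelled and hybridised to Affymetrix mouse genome arrays. The values are log2 intensities that the authors normalized by RMA (version not given in the sources used here), with all 12 arrays of this experiment deposited. RMA evens out differences in overall signal between arrays, so a shift shared by most genes would not be seen. The methods report that 2 baricitinib samples of this experiment, and a control sample at baseline of an experiment not named, failed quality control and were removed. They are not identified, and all 12 deposited arrays were kept. Leaving out 64 control probe sets, 45037 were tested, without a filter on low values, so that all 38 members were tested.

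Linear models with a mean for each of the 4 groups were fitted in limma 3.58.1 (R 4.3.3) with moderated variances (residual degrees of freedom 8, prior 3.54). The Benjamini-Hochberg adjustment ran over all 45037, and an adjusted p under 0.05 was a call. Each sample description ends in a number that recurs at week 0 and week 12 within a treatment and was taken as the mouse, and the deviations from the group means correlated at -0.51 to 0.49 within mice, so the mouse was added as a block where that changed a call. This block was fixed and left 4 residual degrees of freedom. As a random block the mouse had a fitted correlation of -0.0039. Over time with baricitinib, 393 of all probe sets were then called lower, against 394 without a block. The number of mice, 3 in a group, and the spread between them limit the precision. Values in every array are given for called genes, for the gene with the highest mean in each subfamily of several genes, for the 3 largest and 3 smallest changes and for genes whose probe sets differ in sign, and Krtap31-1 was added after its values were seen. Members and lists were chosen with earlier results of these data known. The classes follow the usual assignment of subfamilies and were written down after the values were seen, and protein sequences were not used here. Promoter windows are those of RefSeq (GRCm38.p6). The model was tested on simulated data with independent noise for each probe set and array. Those data held no mouse effect and no shared movement of genes on an array, so neither was tested. Alternatives were the mouse as a fixed or random block, fits of only the groups compared, removal of dim probe sets, a prior variance with a trend, cyclic loess, median centring, array weights, other ways of choosing probe sets and each array left out. After seeing the data, 2 more were added, the 3′ to 5′ measure as a covariate and both arrays of low correlation left out. Tables and figures were made with Python 3.11.15, pandas 2.3.3 and matplotlib 3.10.9.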

Additional observations from a re-analysis of the deposited data

Results flagged for a closer look

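Krtap13 went opposite ways under the 2 treatments. It was lower at week 12 in all 3 baricitinib mice, by log2 differences of -0.52, -0.91 and -0.73, and higher in all 3 vehicle mice, by 0.07, 0.10 and 0.12. The difference between the changes was -0.82 (SE 0.30), and it did not pass in limma (adjusted p = 0.636). The log2 values of Krtap13 were between 1.69 and 2.60 on all 12 arrays, and those of the vehicle mice moved by less than the SD of 0.24 among them at week 0.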

How the results depend on the processing

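The median of the 38 genes over time with baricitinib stayed below 0 in all 25 alternatives, from -5.14 with the 3′ to 5′ covariate to -3.54 without baricitinib week 12 mouse 3. The count of 7 called lower was less steady. It was 2 with a fixed replicate block for the mouse and 4 in a fit of only the groups compared. It was 15 with the filter on dim probe sets, 13 with a prior variance with a trend, 14 with median centring, 15 with the mean of the probe sets of a gene, 15 with 1 probe set per gene, 34 with array weights, 4 without both arrays of low correlation and 22 with the 3′ to 5′ covariate. The share of all probe sets called lower, 0.875% in the fit reported, also rose, to 2.23% with the filter, 2.11% with the mean of the probe sets, 2.39% with 1 probe set per gene and 2.19% with the covariate, and was 0.864% with the trend and 0.997% with centring. This share was 0.289% with the fixed block, 0.195% with only the groups compared and 1.14% without both arrays of low correlation. Leaving out 1 array gave 0 to 26 called Krtap genes. The weights did not converge, vehicle week 0 mouse 2 took a weight of 32.1, and 5279 of all probe sets were then called lower. Krtap4-16 lost its call in 1 of 25 alternatives (adjusted p = 0.0684 without baricitinib week 0 mouse 3), over a range from 0.00013 to 0.0684.

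Against vehicle at week 12, where 0 were called, 1 was called lower with the filter, with median centring, with the mean of the probe sets and with 1 probe set per gene, 2 with the 3′ to 5′ covariate and 21 with array weights, and leaving out 1 array gave 0 to 2. Of all probe sets, the filter called 1.21% lower, centring 0.431%, the mean 0.978% and 1 probe set per gene 1.16%. The covariate called 1.08%, array weights 12.8% and leaving out 1 array 0.0466% to 0.815%, against 0.429% in the fit reported. Array weights called 1 gene lower over time with vehicle, 1 higher at week 0 and 18 lower for the difference of the changes, where 0 were called otherwise. Of all 45037 probe sets, 5.72% were then called lower over time with vehicle and 2396 higher at week 0. For the difference of the changes 7.43% were called lower. The median over time with vehicle was reversed to 0.16 without vehicle week 0 mouse 1, with a range of -2.26 to 0.16 when 1 array was left out, and that at week 0 was reversed to -0.34 without vehicle week 0 mouse 3, with a range of -0.34 to 2.04. The comparison of the treatments at 1 time could not be fitted with the mouse as a fixed block, and a class limit on cysteine was not run. The calls that the fixed block changed are given beside the genes. With 3 mice in a group, and a median SD of 2.55 among the vehicle mice at week 0, the spread between mice limits what could be called.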
